A study of Mus musculus with 13 samples.

Results

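The ADAMTS proteases are secreted zinc metalloproteinases that carry thrombospondin-type repeats and act on the matrix around the cell. The 10 genes described here are Adamts1, Adamts2, Adamts4, Adamts5, Adamts7, Adamts8, Adamts9, Adamts10, Adamts12 and Adamts15. They were taken by symbol from a table of 43346 mouse genes, in which 19 symbols consist of Adamts and a number. All 10 passed the filter on low values that 12938 genes passed, which asked for at least 1 RPKM (reads relative to gene length and library depth) in at least 2 libraries.

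The series holds 13 RNA-seq libraries of mouse lung fibroblasts. Of these, 3 were made on day 14 and 5 on day 30 after bleomycin, which damages alveoli and leaves scarring. Another 3 were made on day 14 after pneumonectomy, the removal of part of the lung, after which the rest grows, and 2 came from sham mice. The bleomycin and sham mice were Col1a1-GFP mice aged 8 weeks, in which a collagen I reporter marks collagen-producing cells. The pneumonectomy libraries are labelled as primary sorted fibroblasts. Their sample labels give neither an age nor a strain, the header of the table calls all 4 groups young, and the design text of the series gives the reporter for all 4 groups. The labels of the pneumonectomy libraries also leave out the RNA quality limit and PCR cycles stated for the other groups, so in every comparison with pneumonectomy, treatment and any difference in preparation cannot be told apart. The labels name neither a sorting gate nor the procedure that the sham mice had, and they do not say whether a library is 1 mouse or a pool. The p-values therefore measure the spread between these libraries. The pneumonectomy columns of the table could not be matched to the numbered replicates of the labels, and the letters A, B and C stand for them.

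Family members differ in what they cut. Adamts1, Adamts4, Adamts5, Adamts8, Adamts9 and Adamts15 belong to the branch that cleaves hyalectans, the large proteoglycans versican and aggrecan that swell the matrix. Adamts2 trims the amino-terminal propeptide from fibrillar procollagens, a step before fibrils form. Adamts7 and Adamts12 cleave cartilage oligomeric matrix protein, and Adamts10 binds fibrillin microfibrils. The enzymes are made as proenzymes that proprotein convertases such as furin activate, and TIMP3 is their main tissue inhibitor. RNA levels say nothing of how much enzyme was secreted or active.

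Depth, estimated from the smallest values and the exon lengths of GENCODE M21, was between 67.6 and 200.3 (in units of 1e6 reads) per library. The day 30 libraries were at 132.7 to 200.3 and all others at 67.6 to 99.9. In every day 30 comparison, depth and group therefore cannot be told apart. The lowest value of any member, that of Adamts7 in a sham library, stood for an estimated 388 reads, which gives a counting error of 5.08%. Other members had at least 663 reads in every library. Fibroblast markers were present throughout, with each of 10 markers above 1 RPKM in at least 1 library of every group. Their summed level was 3291 to 3951 RPKM on day 14 after bleomycin, 6262 to 8122 on day 30, 5992 to 8020 after pneumonectomy and 9314 to 9874 in sham libraries. Gsn made up most of the sham sums, at 6189 and 5589 RPKM, against 209 to 349 RPKM on day 14 after bleomycin. Col1a1 went the other way, at 437 and 670 RPKM in sham libraries and 1196 to 1633 RPKM on that day. By the limma test described below, 5 of the 10 were lower there than in sham, 1 was higher and 4 were not called. Markers of other cells were present too. The 12 endothelial markers summed to 345 to 661 RPKM on day 14 after bleomycin, against 25.0 to 29.9 RPKM on day 30, 28.6 to 59.98 RPKM after pneumonectomy and 36.6 to 38.7 RPKM in sham libraries. Most of the sham sums came from Tek (15.5 and 15.9 RPKM) and Ramp2 (11.6 and 13.7 RPKM). By the same test, 10 of the 12 were higher after pneumonectomy than in sham and 1 lower, with a median log2 change of 1.77. The 11 macrophage markers summed to 138 to 487 RPKM on day 14 and 216 to 765 RPKM on day 30 after bleomycin, against 27.1 to 46.6 RPKM after pneumonectomy and 30.4 to 33.8 RPKM in sham libraries. The 10 epithelial markers reached 1333 RPKM in day 30 replicate 3 and 509 RPKM in pneumonectomy library A, against 8.64 to 102 RPKM in all other libraries. The 10 mural markers summed to 882.5 to 1237 RPKM after pneumonectomy, against 339 to 518 RPKM after bleomycin at either time and 448.5 and 893 RPKM in sham libraries. The 5 mesothelial markers summed to at most 40.6 RPKM and the 6 lymphocyte markers to at most 4.51 RPKM in any library, both after pneumonectomy. No marker of these lists was at 0 in all libraries of a group, and the part of other cells in the changes below was not tested.

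Sex-linked genes also split the libraries. The 5 day 30 libraries held 19.9 to 29.2 RPKM of Xist, with the Y-linked Ddx3y listed at 0. Xist was at 15.9 RPKM in sham replicate 1, which also held 2.14 RPKM of Ddx3y, and under 0.03 RPKM in the 7 remaining libraries. Sham replicate 1 thus held Xist and Y-linked RNA together, with less Ddx3y than sham replicate 2 (11.35 RPKM). Whether it pools mice of both sexes was not tested. Sex and time after bleomycin cannot be told apart here, so every day 30 comparison is also one of sexes. Leaving out sham replicate 1 sets day 14 libraries of either treatment against a sham library with the same pattern of these genes. For day 30 it leaves only a sham library of the opposite pattern, so group and sex then fully coincide. Values without sham replicate 1 are given where they change a call.

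The summed level of the 10 proteases separated the groups. It was 142 to 154 RPKM on day 14 after bleomycin, 169 to 177 RPKM on day 30, 316 to 391 RPKM after pneumonectomy and 199 to 207 RPKM in sham libraries. No ranges overlapped, and the order was the same after scaling between libraries, with sums of 128 to 134, 163 to 168, 373 to 480 and 206 to 214. Adamts1 and Adamts2 made up most of the sum in every library. Adamts1 held 38.6% to 47.3% of it on day 14 after bleomycin, 17.6% to 29.9% on day 30, 43.0% to 44.6% after pneumonectomy and 28.7% and 40.1% in sham libraries. By share of the sum, the aggrecan-cleaving enzymes Adamts4 and Adamts5 had opposite orders of groups. By RPKM the orders were not opposite, as Adamts5 was lowest on day 14 after bleomycin (3.36 to 3.79 RPKM). Adamts4 held 5.67% to 8.95% on day 14 after bleomycin, 1.97% to 3.42% on day 30, 9.18% to 15.2% after pneumonectomy and 0.926% and 1.90% in sham libraries. Adamts5 held 2.18% to 2.68% on day 14 after bleomycin, 5.92% to 8.39% on day 30, 1.52% to 1.79% after pneumonectomy and 9.52% and 11.5% in sham libraries.

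**Figure D1:**
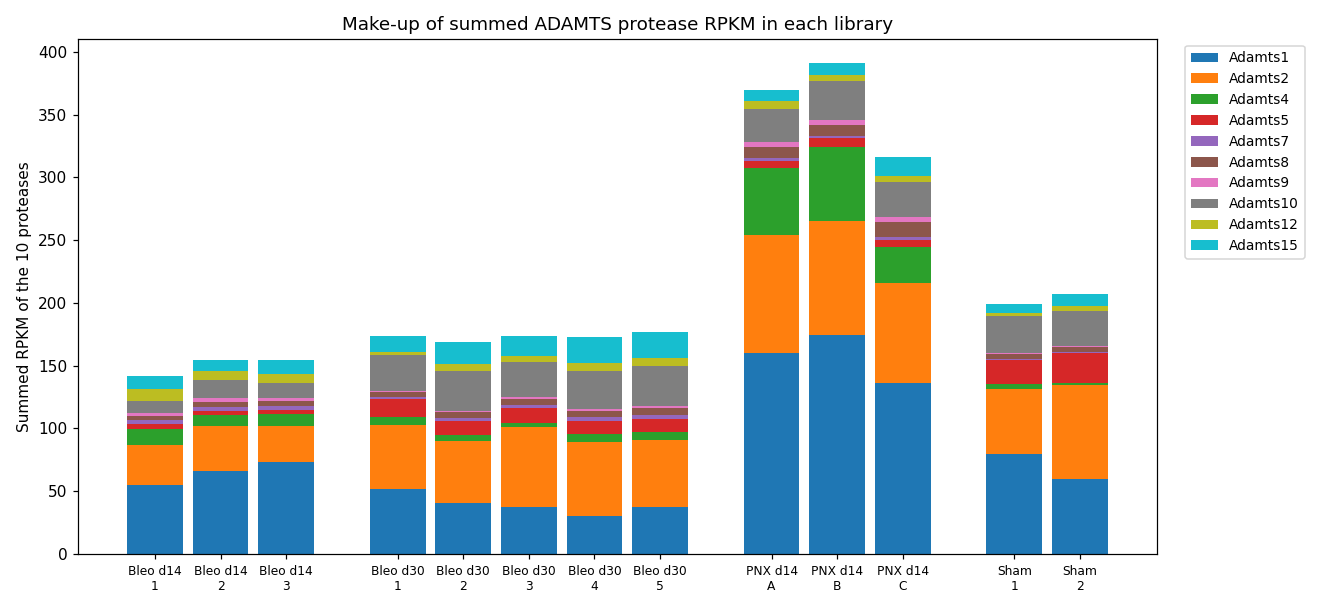
Summed RPKM of the 10 proteases in each library, as stacked bars from 0 (Bleo, bleomycin, and PNX, pneumonectomy), with a colour per gene and libraries grouped by treatment. The pneumonectomy bars reach 316 to 391 RPKM, above all sham bars (199 and 207) and all bleomycin bars (142 to 177).

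Changes were tested with limma on log2 values of scaled RPKM plus 0.1, fitted over all 13 libraries with a mean per group. A gene is called at a Benjamini-Hochberg adjusted p under 0.05 over the 12938 genes, and each log2 change is given with its standard error. In bulk samples, fewer cells of a type and less RNA per cell cannot be told apart. Without scaling, the median change of all genes moved to between -0.21 and 0.47, so changes are relative to that median.

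Adamts1 lies on chromosome 16 (mm10, from 85793827 to 85803113). Its protein cleaves versican and holds back blood vessel growth. Its level was 54.7, 66.1 and 73.0 RPKM on day 14 after bleomycin and 52.0, 40.3, 37.8, 30.5 and 37.2 RPKM on day 30. It was 159.9, 174 and 136 RPKM after pneumonectomy and 79.8 and 59.4 RPKM in sham libraries. All pneumonectomy libraries were above every other library, and day 14 bleomycin overlapped sham. The gene was higher after pneumonectomy than in sham (1.40 ± 0.21, adjusted p = 0.000363) and was not called on day 14 after bleomycin (-0.35 ± 0.21, adjusted p = 0.168). Between the day 14 groups, bleomycin was lower than pneumonectomy by a log2 change of -1.75 ± 0.19 (adjusted p = 6.71e-06). On day 30 it was lower than on day 14 after bleomycin (-0.59 ± 0.17, adjusted p = 0.00956) and lower than in sham (-0.94 ± 0.19, adjusted p = 0.00465). Without sham replicate 1 the difference from sham was no longer called (-0.72, adjusted p = 0.0612).

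Adamts4 (chromosome 1, 171250421 to 171260637) encodes an aggrecanase that inflammatory signals induce in cartilage. Its level was 12.7, 8.76 and 9.43 RPKM on day 14 after bleomycin and 5.86, 4.95, 3.42, 5.88 and 6.05 RPKM on day 30. It was 53.3, 59.5 and 29.0 RPKM after pneumonectomy and 3.78 and 1.91 RPKM in sham libraries. All pneumonectomy libraries stood above the highest bleomycin library, with C the lowest of the 3. Adamts4 had the largest rise of the 10 members after pneumonectomy, 4.24 ± 0.36 against sham (adjusted p = 1.00e-05), and also rose on day 14 after bleomycin (1.63 ± 0.36, adjusted p = 0.00203). The level at day 14 was lower after bleomycin than after pneumonectomy (-2.61 ± 0.32, adjusted p = 2.22e-05). On day 30 it was lower than on day 14 after bleomycin (-0.85 ± 0.29, adjusted p = 0.0248) and did not pass the test against sham (0.79 ± 0.33, adjusted p = 0.0968). The lower level than on day 14 was no longer called without day 14 replicate 1 (-0.66, adjusted p = 0.112) or without day 30 replicate 3 (-0.71, adjusted p = 0.0503), the library with the most epithelial RNA. Without sham replicate 1 the difference between day 30 and sham was called (1.26, adjusted p = 0.0489).

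Adamts5 (chromosome 16, 85856173 to 85901828), the other main aggrecanase, is taken up and cleared by the receptor LRP1. Its level was 3.79, 3.48 and 3.36 RPKM on day 14 after bleomycin and 14.6, 11.4, 12.0, 10.4 and 10.5 RPKM on day 30. It was 5.64, 6.70 and 5.67 RPKM after pneumonectomy and 18.9 and 23.8 RPKM in sham libraries. The 4 groups did not overlap. It was the only member called lower than sham in all 3 treated groups, by log2 changes of -2.79 ± 0.16 on day 14 after bleomycin (adjusted p = 1.31e-07), -0.98 ± 0.14 on day 30 (adjusted p = 0.000843) and -1.59 ± 0.16 after pneumonectomy (adjusted p = 2.44e-05). Day 14 after bleomycin was lower than pneumonectomy (-1.20 ± 0.14, adjusted p = 1.34e-05), and day 30 was higher than day 14 after bleomycin (1.81 ± 0.13, adjusted p = 3.47e-07) and higher than pneumonectomy (0.61 ± 0.13, adjusted p = 0.00143).

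Adamts9 (chromosome 6, 92772699 to 92943492) encodes a versicanase conserved from worms to mammals. Its level was 2.62, 3.13 and 2.82 RPKM on day 14 after bleomycin and 0.831, 0.911, 1.30, 1.61 and 1.74 RPKM on day 30. It was 4.29, 4.29 and 4.42 RPKM after pneumonectomy and 0.835 and 0.792 RPKM in sham libraries. The order of groups was that of Adamts4, with day 30 reaching down to sham. The rise against sham was 2.50 ± 0.24 after pneumonectomy (adjusted p = 2.05e-05) and 1.46 ± 0.24 on day 14 after bleomycin (adjusted p = 0.000246). Bleomycin was lower than pneumonectomy at day 14 (-1.04 ± 0.21, adjusted p = 0.000977), and day 30 was lower than day 14 (-1.03 ± 0.19, adjusted p = 0.000698). Day 30 was not called against sham (0.43 ± 0.22, adjusted p = 0.159), but was without day 30 replicate 1 (0.56, adjusted p = 0.0387). Of its annotated exon bases, 9.18% overlap those of A730049H05Rik on the other strand, which was at 0.208 to 2.74 RPKM. The kit is not stated to keep the strand, so reads there could belong to either gene, and the same holds for 10.6% of the exon bases of Adamts8 (Gm29724, not analysed here).

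Adamts8 (chromosome 9, 30942562 to 30963838), a lung-expressed member that also acts against angiogenesis, was at 3.03, 4.17 and 3.84 RPKM on day 14 after bleomycin and 3.91, 4.58, 5.22, 5.21 and 5.25 RPKM on day 30. It was at 8.84, 8.78 and 11.4 RPKM after pneumonectomy and 4.55 and 3.64 RPKM in sham libraries. The pneumonectomy libraries stood clear of the others, which overlapped. The rise after pneumonectomy was 1.44 ± 0.16 against sham (adjusted p = 4.80e-05), and bleomycin at day 14 was lower than pneumonectomy by -1.83 ± 0.14 (adjusted p = 5.50e-07). The call against sham on day 14 after bleomycin (-0.39 ± 0.16, adjusted p = 0.0459) was made on scaled values, while the deposited RPKM of these groups overlapped. It was lost without sham replicate 1 (-0.23, adjusted p = 0.322), day 14 replicate 1 (-0.29, adjusted p = 0.145) or day 14 replicate 3 (-0.41, adjusted p = 0.0744), and on the RPKM as deposited (-0.15). Day 30 was higher than day 14 (0.51 ± 0.13, adjusted p = 0.00428) and not called against sham (0.12 ± 0.14, adjusted p = 0.566).

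Adamts15 (chromosome 9, 30899155 to 30922452), another versicanase, had its highest levels on day 30 after bleomycin, apart from the rest of the hyalectan branch. It was at 10.4, 8.98 and 11.1 RPKM on day 14 after bleomycin, 13.1, 17.8, 16.2, 20.8 and 20.3 RPKM on day 30, 8.83, 9.44 and 14.8 RPKM after pneumonectomy and 6.66 and 9.19 RPKM in sham libraries. The day 30 range cleared both sham and day 14 after bleomycin but overlapped pneumonectomy through library C. Day 30 was higher than sham (1.03 ± 0.21, adjusted p = 0.00477) and higher than day 14 after bleomycin (0.90 ± 0.18, adjusted p = 0.00132). Without sham replicate 1 the difference from sham was no longer called (0.80, adjusted p = 0.0610). The call after pneumonectomy against sham (0.67 ± 0.23, adjusted p = 0.0349) was lost without library C (0.45), without sham replicate 1 (0.44) and on RPKM as deposited (0.45). That of bleomycin against pneumonectomy at day 14 (-0.54 ± 0.21, adjusted p = 0.0329) was lost without library C (-0.34) or day 14 replicate 2 (-0.45), and was -0.08 on RPKM as deposited.

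**Figure D2:**
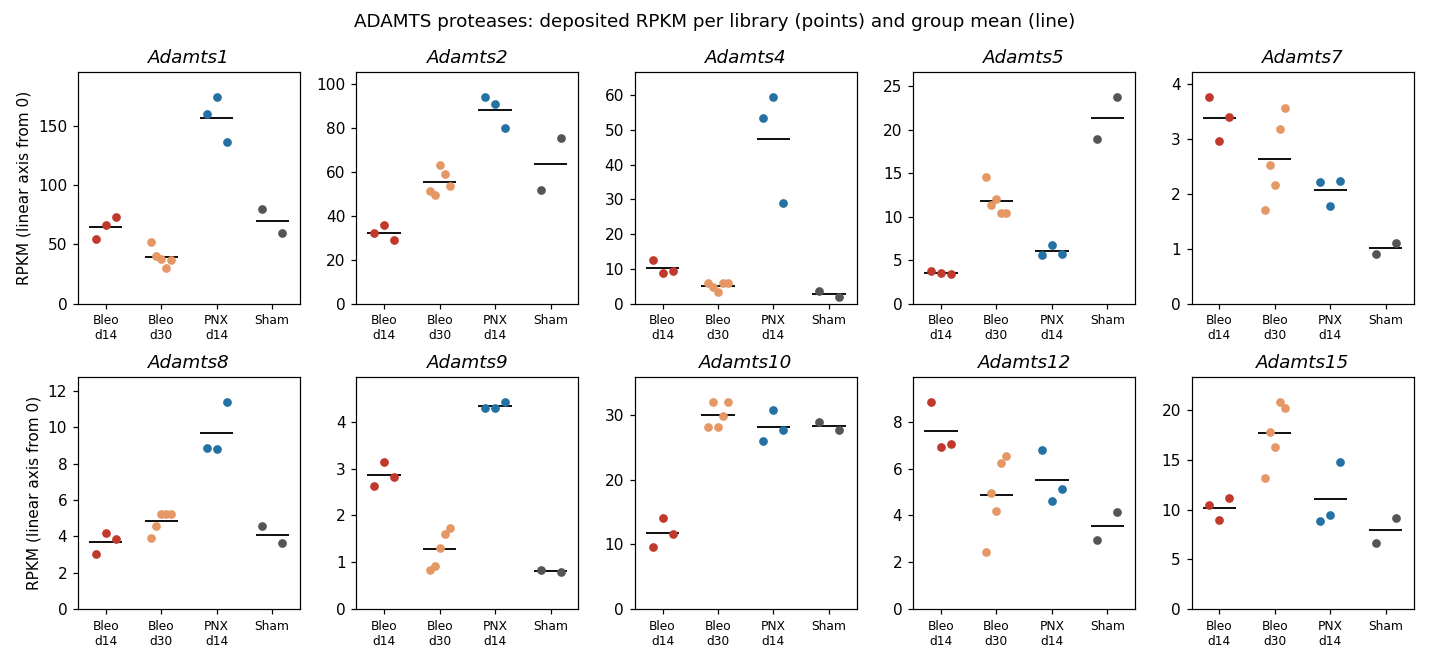
Deposited RPKM of each protease by library (points) with the group mean (line), on linear axes that start at 0 (Bleo, bleomycin, and PNX, pneumonectomy). Adamts1, Adamts4, Adamts8 and Adamts9 are highest after pneumonectomy, Adamts5 is lowest on day 14 after bleomycin, and Adamts15 is highest on day 30.

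Adamts2 (chromosome 11, 50602084 to 50807573), the procollagen N-proteinase, was at 32.0, 35.9 and 28.8 RPKM on day 14 after bleomycin, 51.1, 49.4, 63.3, 59.1 and 53.7 RPKM on day 30, 94.1, 90.6 and 80.0 RPKM after pneumonectomy and 51.6 and 75.1 RPKM in sham libraries. Day 14 after bleomycin was below every other library, and pneumonectomy was above. The fall against sham on day 14 was -1.20 ± 0.17 (adjusted p = 7.65e-05), and the difference between bleomycin and pneumonectomy at day 14 was -1.92 ± 0.15 (adjusted p = 6.58e-07). Day 30 was higher than day 14 (0.90 ± 0.14, adjusted p = 0.000135) and was not called against sham (-0.30 ± 0.16, adjusted p = 0.173), though it was without sham replicate 1 (-0.57, adjusted p = 0.0407). The rise after pneumonectomy against sham (0.72 ± 0.17, adjusted p = 0.00562) was lost without sham replicate 1 (0.45, adjusted p = 0.0699) and with the compared groups alone (0.71, adjusted p = 0.0509). Its substrate genes Col1a1 and Col3a1 were at 1373 ± 230.1 and 831 ± 88.5 RPKM on day 14 after bleomycin and at 554 ± 165 and 720.3 ± 217 RPKM in sham libraries (SD, n = 3 and 2). Col1a1 was called higher there (1.09 ± 0.31, adjusted p = 0.00899) and Col3a1 was not called (-0.01 ± 0.25, adjusted p = 0.975). Both were named after their values were seen.

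Adamts7 (chromosome 9, 90163069 to 90208071) was at 3.76, 2.95 and 3.39 RPKM on day 14 after bleomycin, 1.71, 2.52, 2.16, 3.18 and 3.56 RPKM on day 30, 2.21, 1.77 and 2.24 RPKM after pneumonectomy and 0.912 and 1.10 RPKM in sham libraries. Every treated library was above both sham libraries. It was the only member called higher than sham in all 3 treated groups, by 1.41 ± 0.24 on day 14 after bleomycin (adjusted p = 0.000367), 1.15 ± 0.22 on day 30 (adjusted p = 0.00366) and 1.18 ± 0.24 after pneumonectomy (adjusted p = 0.00277). Bleomycin and pneumonectomy at day 14 were not called apart (0.23 ± 0.22, adjusted p = 0.369), but were on RPKM as deposited (0.68, adjusted p = 0.0152). Exon overlap with Tbc1d2b on the other strand covers 1.94% of its exon bases.

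Adamts12 (chromosome 15, 11064790 to 11349231), the closest relative of Adamts7, was at 8.85, 6.93 and 7.04 RPKM on day 14 after bleomycin, 2.43, 4.96, 4.21, 6.26 and 6.52 RPKM on day 30, 6.79, 4.62 and 5.11 RPKM after pneumonectomy and 2.93 and 4.15 RPKM in sham libraries. In deposited RPKM, day 14 after bleomycin was highest, by a narrow margin over pneumonectomy library A. After scaling between libraries the day 14 groups overlapped. The rise against sham on day 14 (0.85 ± 0.34, adjusted p = 0.0481) lost its call without any of the 5 libraries compared (0.61 to 1.10). Pneumonectomy against sham gave a like change of 0.84 ± 0.34 that was not called (adjusted p = 0.0693), and the difference between the day 14 groups was 0.01 ± 0.31 (adjusted p = 0.980). On day 30 the change against sham was 0.28 ± 0.32 (adjusted p = 0.540).

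Adamts10 (chromosome 17, 33524204 to 33553782), the fibrillin-binding member, was at 9.66, 14.04 and 11.6 RPKM on day 14 after bleomycin, 28.2, 32.0, 28.2, 29.9 and 32.0 RPKM on day 30, 26.0, 30.8 and 27.7 RPKM after pneumonectomy and 28.9 and 27.6 RPKM in sham libraries. Day 14 after bleomycin stood apart from 3 groups that overlapped. The gene was lower there than in sham (-1.51 ± 0.12, adjusted p = 1.15e-06) and lower than after pneumonectomy (-1.73 ± 0.11, adjusted p = 1.89e-07). Day 30 was higher than day 14 (1.48 ± 0.10, adjusted p = 2.67e-07). Neither day 30 (-0.03 ± 0.11, adjusted p = 0.858) nor pneumonectomy (0.21 ± 0.12, adjusted p = 0.188) was called against sham, and both signs turned on RPKM as deposited.

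**Figure D3:**
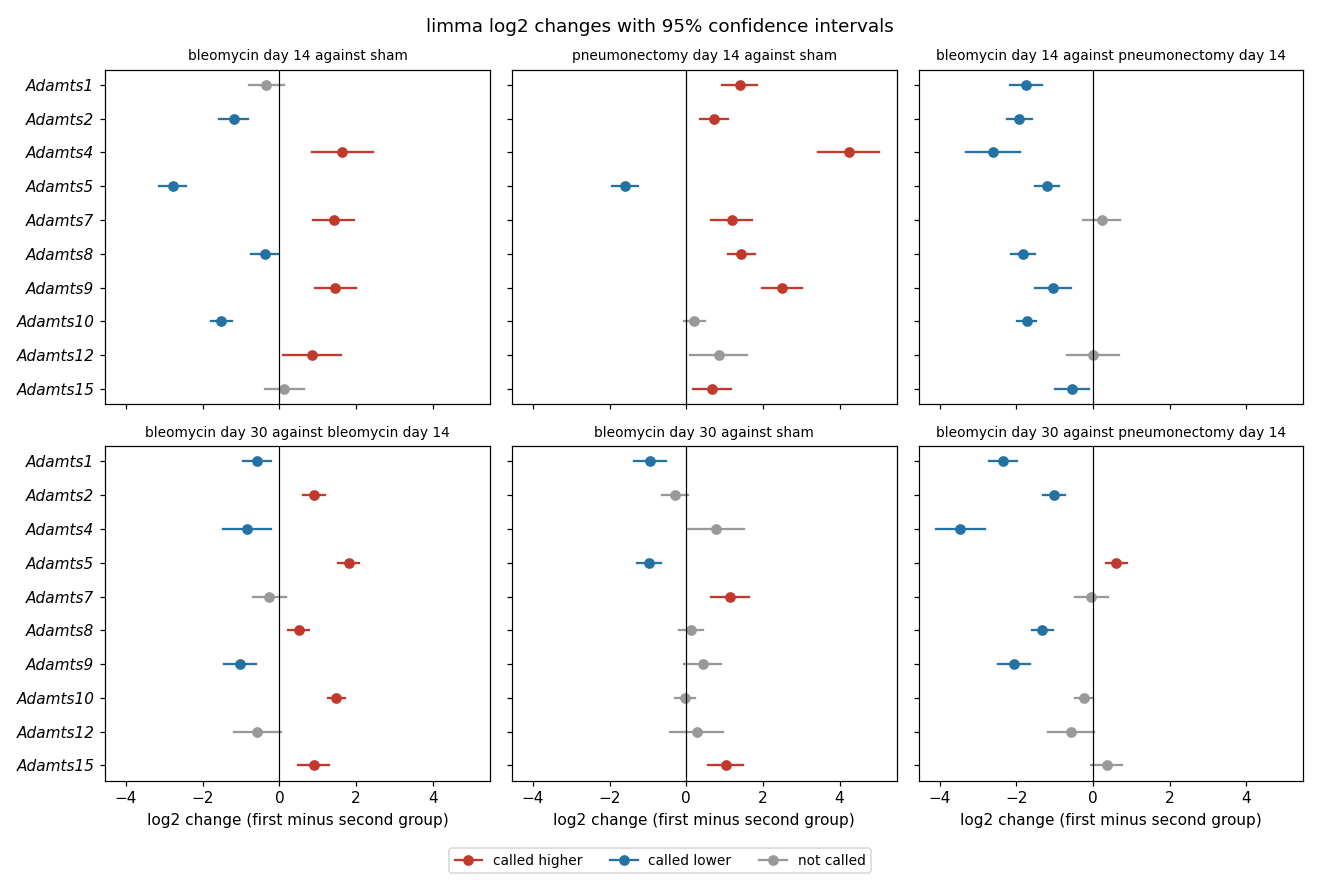
Log2 changes of the 10 proteases in 6 comparisons (points, with 95% confidence intervals), first group minus second, red for called higher, blue for called lower and grey for not called. In the comparison of bleomycin with pneumonectomy at day 14, 8 points lie to the left of 0 and are called.

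On day 14 after bleomycin against sham, 4 of the 10 rose (Adamts4, Adamts7, Adamts9 and Adamts12), 4 fell (Adamts2, Adamts5, Adamts8 and Adamts10) and 2 did not pass the test. Over all genes 33.4% were higher and 29.9% lower, 63.3% in all, so the members' share is near the background. The median change of the members was -0.11, against 0.02 over all genes, and turned to 0.13 on RPKM as deposited, where 4 members were higher and 3 lower. The same setting moved the share of higher genes among all called genes to 71.6%, against 52.7% with scaling.

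After pneumonectomy against sham, 7 of the 10 rose, 1 fell (Adamts5) and 2 did not pass the test (Adamts10 and Adamts12). The background was 22.6% higher and 19.3% lower, 42.0% in all. The members' median was 1.01, against 0.01 over all genes. On RPKM as deposited 6 members were higher and 1 lower, with a median of 0.80, while the share of higher genes among all called genes went to 25.4%, against 54.0% with scaling.

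Bleomycin against pneumonectomy at day 14 shares no sham library. Here none of the 10 was called higher, 8 were lower and Adamts7 and Adamts12 did not pass the test, against 36.2% of all genes higher and 34.6% lower, 70.8% in all. The members' median was -1.46 and that of all genes 0.02. On RPKM as deposited 1 member was higher (Adamts7) and 7 lower, with a median of -1, although 77.4% of all called genes were then higher, against 51.1% with scaling.

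From day 14 to day 30 after bleomycin, 5 members were higher (Adamts2, Adamts5, Adamts8, Adamts10 and Adamts15) and 3 lower (Adamts1, Adamts4 and Adamts9), against 28.9% and 30.7% of all genes, 59.6% in all. The members' median was 0.12 and became 0.00031 on RPKM as deposited, where 5 were higher and 4 lower, Adamts12 now among them (-0.70). Day 30 against sham gave 2 higher (Adamts7 and Adamts15), 2 lower (Adamts1 and Adamts5) and 6 not called, with 14.8% of all genes higher and 14.1% lower, 28.8% in all. Day 30 against pneumonectomy gave 1 higher (Adamts5), 5 lower (Adamts1, Adamts2, Adamts4, Adamts8 and Adamts9) and 4 not called, with 28.5% of all genes higher and 29.0% lower, 57.6% in all. The lower members changed by -1.02 (Adamts2) to -3.46 (Adamts4). On RPKM as deposited the share of higher genes among all called genes went to 34.8% for day 30 against day 14, 76.4% against sham and 81.1% against pneumonectomy, compared with 48.5%, 51.2% and 49.6% with scaling.

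Adamts1 and Adamts5 are neighbours on chromosome 16, read from the same strand with a gap of 53059 bases. Their ratio within a library does not depend on scaling between libraries. The log2 ratio of Adamts1 to Adamts5 averaged 4.18 ± 0.30 on day 14 after bleomycin, 1.74 ± 0.13 on day 30, 4.70 ± 0.12 after pneumonectomy and 1.70 ± 0.53 in sham libraries (SD, n = 3, 5, 3 and 2). Day 14 libraries of either treatment held at least 14.4 times as much Adamts1 as Adamts5 RNA per length, and no sham or day 30 library more than 4.22 times. Day 30 was below day 14 after bleomycin by a log2 difference of -2.44 and below pneumonectomy by -2.96, each at an exact permutation p of 0.0357, two-sided, the smallest that 5 against 3 libraries allow (0.143 after adjustment over 12 tests). Against the 2 sham libraries, day 14 after bleomycin and pneumonectomy differed by 2.48 and 3.00 without overlap, in a design whose smallest exact p is 0.2.

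Adamts8 and Adamts15 lie next to each other on chromosome 9, on opposite strands with their starts facing and 20109 bases between them. Their log2 ratio averaged -1.48 ± 0.34 on day 14 after bleomycin, -1.86 ± 0.16 on day 30, -0.16 ± 0.19 after pneumonectomy and -0.94 ± 0.56 in sham libraries (SD, n = 3, 5, 3 and 2). Pneumonectomy was above all other libraries. Day 30 minus pneumonectomy was -1.70 (exact permutation p = 0.0357, adjusted p = 0.143) and day 14 after bleomycin minus pneumonectomy -1.32 (exact permutation p = 0.1, the smallest possible with 3 against 3, adjusted p = 0.184).

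**Figure D4:**
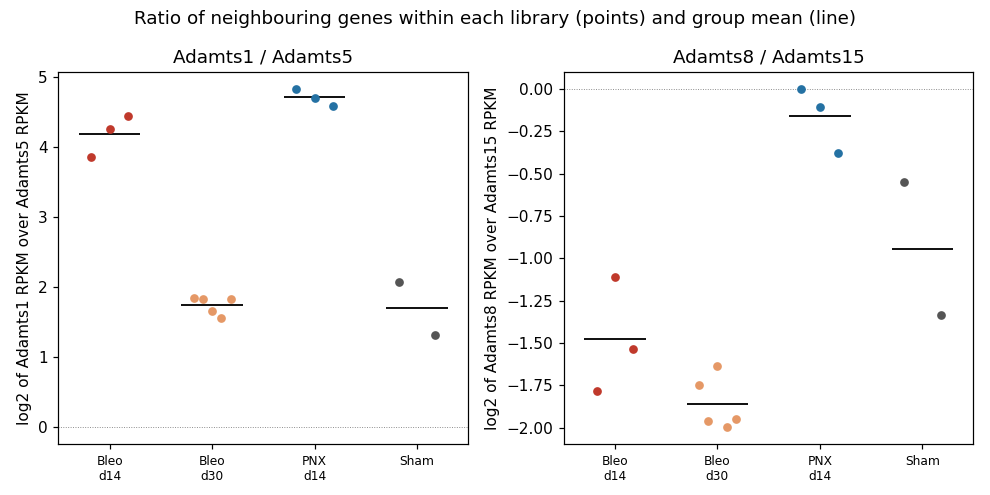
Log2 ratio of Adamts1 to Adamts5 (left) and of Adamts8 to Adamts15 (right) within each library (points), with the group mean (line). The left ratio is near 4 or above in all day 14 libraries and near 2 or below in day 30 and sham libraries, and the right ratio is highest after pneumonectomy.

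RefSeq promoter windows (build GRCm38.p6, 250 bases before to 50 after the start) were at hand for 4 of the 10 members. The 3 of these that were higher after pneumonectomy than in sham are shown, so that the letters before their starts can be compared. Capitals mark matches on either strand to the so-called GC box motif, spelled GGGCGG, or to the TATA box motif, spelled TATAAA.
Adamts1, minus strand, chr16:85803064-85803363: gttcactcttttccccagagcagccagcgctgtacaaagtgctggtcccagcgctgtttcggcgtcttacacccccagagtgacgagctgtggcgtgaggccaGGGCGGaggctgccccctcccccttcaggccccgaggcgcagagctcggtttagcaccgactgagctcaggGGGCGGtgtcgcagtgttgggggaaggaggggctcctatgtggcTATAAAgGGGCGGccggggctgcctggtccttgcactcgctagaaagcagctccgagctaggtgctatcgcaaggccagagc
Adamts2, plus strand, chr11:50601835-50602134: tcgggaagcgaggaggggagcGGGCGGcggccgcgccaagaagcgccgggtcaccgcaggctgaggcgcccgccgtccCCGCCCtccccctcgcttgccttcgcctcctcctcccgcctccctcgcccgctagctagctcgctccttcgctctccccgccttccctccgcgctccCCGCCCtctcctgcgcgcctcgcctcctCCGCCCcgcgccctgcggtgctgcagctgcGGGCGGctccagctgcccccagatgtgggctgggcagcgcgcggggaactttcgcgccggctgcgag
Adamts9, minus strand, chr6:92943485-92943784: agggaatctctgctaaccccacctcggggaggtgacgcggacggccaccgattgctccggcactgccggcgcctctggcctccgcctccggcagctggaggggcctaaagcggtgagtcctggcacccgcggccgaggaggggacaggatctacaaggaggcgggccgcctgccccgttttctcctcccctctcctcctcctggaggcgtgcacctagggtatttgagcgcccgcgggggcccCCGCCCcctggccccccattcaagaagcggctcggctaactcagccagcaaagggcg

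The Adamts1 window has a TATA box at position -32 from the start and 3 GC boxes, that of Adamts2 has 5 GC boxes and that of Adamts9 has 1. Of 32851 RefSeq promoter windows of this length, 35.7% hold a GC box and 13.6% a TATA box. GC content was 64.7%, 77.3% and 70.0% for Adamts1, Adamts2 and Adamts9, against a median of 52.7% over all windows. No match was found in the 4 windows to TGANTCA (AP-1, in 7.81% of all windows), TGACGTCA (CRE, 1.79%), CCAAT (37.4%), GGAATG (TEAD, 14.7%) or TGTGGT (RUNX, 16.8%), searched on both strands. The Adamts12 window held no match to any of the 7 motifs. These are matches of letters, and no binding was measured.

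Other genes of the system were read from lists, and their counts stand against the shares over all genes. These were 33.4% higher and 29.9% lower for day 14 after bleomycin against sham, and 22.6% and 19.3% for pneumonectomy against sham. For bleomycin against pneumonectomy at day 14 they were 36.2% and 34.6%. Of the 9 other ADAMTS enzymes, 4 passed the filter on low values. On day 14 after bleomycin 2 of these were higher than sham and 2 lower, and after pneumonectomy 3 were higher and 0 lower. On RPKM as deposited these counts were 2 higher and 1 lower after bleomycin and 2 higher and 0 lower after pneumonectomy, and with upper-quartile scaling 2 were higher after pneumonectomy. Adamts14, which like Adamts2 trims procollagen, was at 4.43, 2.67 and 3.61 RPKM on day 14 after bleomycin and 0.581 and 0.664 RPKM in sham libraries, a change of 2.09 ± 0.31 (adjusted p = 0.000126) that ran opposite to Adamts2. After pneumonectomy it changed by 1.17 ± 0.31 (adjusted p = 0.0113). Adamts17, a relative of Adamts10 and Adamts19 linked to short stature and eye lens disease in humans, was at 7.51, 7.64 and 8.70 RPKM after pneumonectomy and 0.591 and 0.611 RPKM in sham libraries (3.75 ± 0.23, adjusted p = 1.87e-06). It changed by 0.80 ± 0.23 on day 14 after bleomycin (adjusted p = 0.00976). Adamts19 changed by -1.10 ± 0.22 on day 14 after bleomycin (adjusted p = 0.000977) and 0.59 ± 0.22 after pneumonectomy (adjusted p = 0.0491), and Adamts6 by -0.64 ± 0.22 on day 14 after bleomycin (adjusted p = 0.0238). Adamts19, counted among the 3 higher after pneumonectomy, reached 1 RPKM only in pneumonectomy libraries B and C (1.16 and 1.01 RPKM). It passed the filter only through the group where it was called higher, so its call adds nothing to that count.

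The ADAMTS-like proteins have the repeats but no protease domain, and several bind microfibrils. Of 6 tested of 7, 0 were higher and 5 lower than sham on day 14 after bleomycin, with a median of -1.95 against 0.02 over all genes. After pneumonectomy 2 were higher and 4 lower, and in bleomycin against pneumonectomy at day 14 all 6 were lower, also on RPKM as deposited and with upper-quartile scaling. Adamtsl1 was at 0.7098 ± 0.135 RPKM on day 14 after bleomycin and 4.57 ± 0.654 RPKM in sham libraries (-2.75 ± 0.12, adjusted p = 6.67e-08). Adamtsl3 (-2.95 ± 0.14, adjusted p = 7.35e-08), Adamtsl4 (-2.47 ± 0.13, adjusted p = 9.42e-08) and Adamtsl5 (-1.43 ± 0.10, adjusted p = 3.54e-07) fell as well. Adamtsl2, which binds fibrillin and the latent TGF-beta binding protein, was at 27.3, 24.6 and 36.8 RPKM after pneumonectomy and 8.82 and 10.1 RPKM in sham libraries (1.84 ± 0.25, adjusted p = 0.000194). After pneumonectomy Adamtsl3, Adamtsl5 and Adamtsl4 changed by -1.57 ± 0.14, -0.55 ± 0.10 and -0.60 ± 0.13.

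Of 13 genes tested of 14 in the list of activation, inhibition and clearance, 4 were higher and 5 lower than sham on day 14 after bleomycin. The inhibitor Timp3 was at 58.5, 74.7 and 63.4 RPKM on day 14 after bleomycin and 306 and 231 RPKM in sham libraries, a change of -2.27 ± 0.21 (adjusted p = 2.43e-06). Timp2 fell by 2.00 ± 0.14 on the log2 scale (adjusted p = 3.20e-07). Fbln1, whose protein is a cofactor of ADAMTS1, changed by -4.28 ± 0.26 (adjusted p = 2.01e-07), and the convertase Pcsk6, at 0.609, 1.39 and 0.885 RPKM against 29.5 and 29.1 RPKM in sham libraries, by -5.08 ± 0.32 (adjusted p = 2.44e-07). Lrp1, the clearance receptor, fell (-1.53 ± 0.16, adjusted p = 8.14e-06), while Furin (1.22 ± 0.12, adjusted p = 5.52e-06) and Timp1 (2.62 ± 0.31, adjusted p = 1.95e-05) rose. These last 3 genes were chosen after their values were seen. After pneumonectomy 6 of the 13 were higher than sham and 3 lower. Sdc4, a cell-surface proteoglycan that binds ADAMTS4 and ADAMTS5, was at 126, 116 and 92.2 RPKM after pneumonectomy and 29.5 and 17.3 RPKM in sham libraries (2.51 ± 0.23, adjusted p = 1.42e-05). Pcsk6 changed by -2.17 ± 0.32 (adjusted p = 0.000366), Pofut2, which adds fucose to the thrombospondin repeats, by 0.56 ± 0.09 (adjusted p = 0.000516) and Furin by 0.59 ± 0.12 (adjusted p = 0.00284).

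Of 14 substrate genes tested of 18, 5 were higher and 1 lower than sham on day 14 after bleomycin, and 8 were higher and 0 lower after pneumonectomy (7 and 1 on RPKM as deposited). Col2a1, counted in the 8, reached 1 RPKM only in pneumonectomy libraries A and C. It passed the filter only through the group where it was called higher, so its call adds nothing to that count. Among these 8, Comp was at 7.19, 0.815 and 0.802 RPKM after pneumonectomy, with A highest, and 0.281 and 0.258 RPKM in sham libraries. Fbn2, also among them, reached at most 0.489 RPKM after pneumonectomy. Versican (Vcan), the shared target of the hyalectan branch, was at 18.3, 11.7 and 14.1 RPKM on day 14 after bleomycin and 13.5 and 15.1 RPKM in sham libraries and was not called (-0.23 ± 0.19, adjusted p = 0.307). Vcan was named after its values were seen. On day 14 after bleomycin the basement membrane gene Nid1 fell (-1.29 ± 0.13, adjusted p = 4.79e-06), and the proteoglycan Fmod (2.91 ± 0.32, adjusted p = 1.24e-05), fibronectin Fn1 (1.495 ± 0.29, adjusted p = 0.000814) and Fbn2 (3.88 ± 0.55, adjusted p = 8.64e-05) rose. Fbn2 was at 0.0252 ± 0.00759 RPKM in sham libraries, so the size of its change depends on the 0.1 added. After pneumonectomy Thbs1, a thrombospondin that ADAMTS1 cleaves, was at 904, 1107 and 644 RPKM, against 91.2 and 34.9 RPKM in sham libraries (4.16 ± 0.35, adjusted p = 9.50e-06). Bgn (0.90 ± 0.13, adjusted p = 0.000236) and Fmod (1.87 ± 0.32, adjusted p = 0.000939) rose too. Col2a1, the collagen of cartilage, was called (4.60 ± 0.85, adjusted p = 0.00145) at 10.2, 0.436 and 2.95 RPKM after pneumonectomy and 0.0271 and 0.0232 RPKM in sham libraries. Its pneumonectomy libraries differed widely, with A highest, and the size of its change also depends on the 0.1 added.

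**Figure D5:**
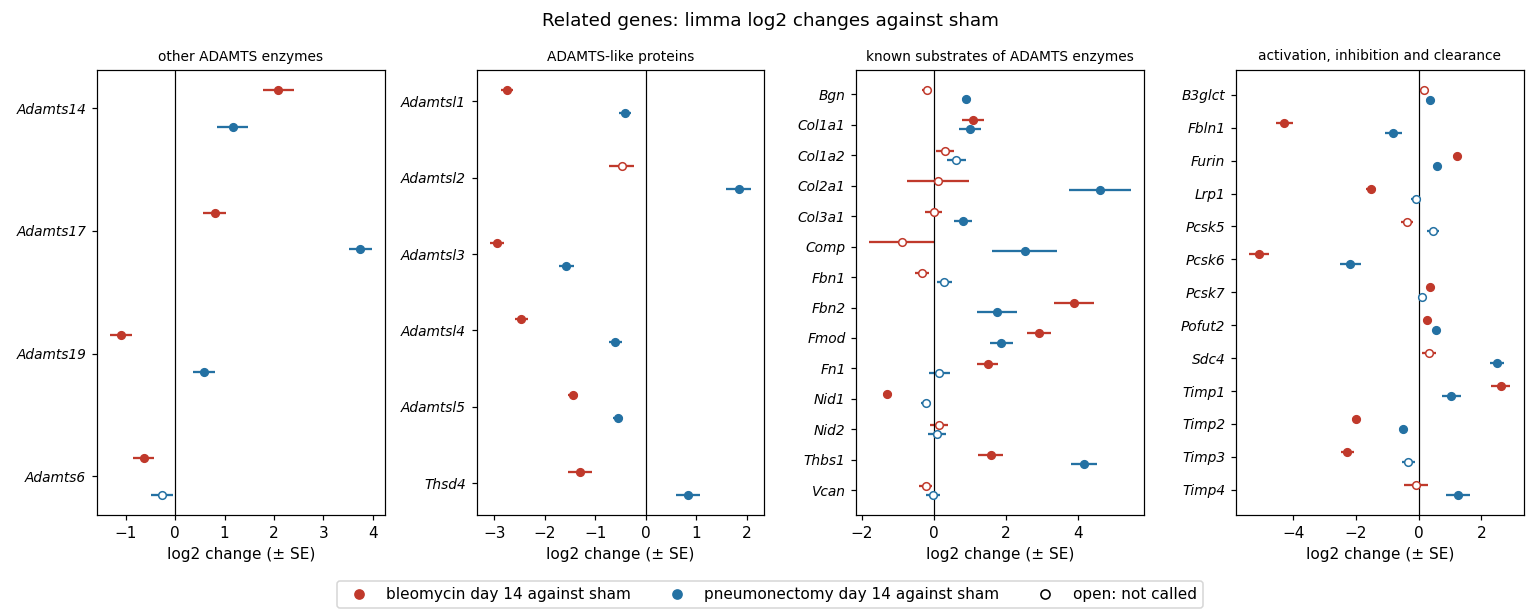
Log2 changes (± SE) of the related genes that passed the filter, for day 14 after bleomycin against sham (red) and day 14 after pneumonectomy against sham (blue), with open points for genes not called. The red points of 5 ADAMTS-like genes and of Fbln1, Pcsk6, Timp2 and Timp3 lie left of 0 and are called.

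Genes with the most similar pattern over the 13 libraries were found by Pearson's r of scaled log2 values, a description that also carries what libraries of a group share. For Adamts1 they were Ppp1r15b and Pom121 (0.980 and 0.975), for Adamts4 Slc2a1 and Thbs1 (0.990 and 0.985), for Adamts5 Wnt2b and Pdlim2 (0.988 and 0.988) and for Adamts2 Dnajc1 and Cachd1 (0.983 and 0.979). Adamts8 was closest to Adamtsl2 and Ces1d (0.983 and 0.981), Adamts9 to Chrna7 and Lrp5 (0.977 and 0.976), Adamts10 to Txndc16 and Pkia (0.985 and 0.985) and Adamts7 to Fam210b and Mmp14 (0.959 and 0.959). The closest genes of Adamts12 (Scarb2 and Ifnar1, 0.917 and 0.905) and Adamts15 (Fth1 and Cenpo, 0.891 and 0.890) were less alike. Among the members themselves, r was highest between Adamts4 and Adamts9 (0.914) and lowest between Adamts5 and Adamts7 (-0.744).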

How the data were processed

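The authors deposited RPKM for 13 libraries on mm10 (GRCm38), per the submitters' processing notes. Aligner, counter and annotation are not given in the sources used here. Per the labels, TruSeq v2 libraries were made from 200 ng RNA. For sham and bleomycin they add a quality number of 6 or more, 12 cycles of PCR and selection of poly(A) RNA. RPKM hides differences in total RNA per cell.

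From these values, genes reaching 1 RPKM in 2 or more libraries were kept. RPKM were divided by trimmed-mean factors (30% of ratios, 5% of levels trimmed), 0.1 was added, and log2 values were fitted with limma 3.58.1 (R 4.3.3, trend, robust) over all 13 libraries and all kept genes, two-sided, with Benjamini-Hochberg adjustment. The fit was tested on simulated data. Depth came from low values that are whole reads within 0.05 for 80.7% to 82.2% of values. Because 2 sham libraries are few, the spread is shared over groups. Ratios used exact permutation tests. Alternatives were another pseudocount, filter, scaling, test setting or sample set, a replicate block, and leaving out each library. All list entries matched the table, Adgre1 as Emr1. By rule, all members are named, with up to 4 called genes of smallest p per related list against sham and the 2 genes most like each member. Members and lists were chosen with earlier results of these data known.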

Additional observations from a re-analysis of the deposited data

How the results depend on the processing

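Of the 60 member changes, 42 were called. Of these 30 stayed called under all alternatives run, 12 lost the call under some, and 0 turned sign. Of the 18 not called, 8 were called under some alternative and 8 turned sign. With the replicate block, the count of members called on day 30 after bleomycin against sham was 0, against 4 without it, and Adamts8 (-0.0079) and Adamts12 (-0.028) turned sign there. The block fit also took the call from Adamts8 and Adamts12 on day 14 against sham and from Adamts1 (-0.43) and Adamts8 (0.44) on day 30 against day 14. That fit left out the pneumonectomy libraries and added a term per replicate number. An effect of the block and of fewer libraries to measure the spread cannot be told apart in these losses. The numbers share no stated origin, and of 7 same-numbered pairs 1 had deviations correlated above 0.1 (-0.127 to 0.136). Of 24 pairs with different numbers, 5 were above 0.1 (-0.217 to 0.201). Deviations of the 2 sham libraries mirror each other by construction. No paired analysis was possible for pneumonectomy because its columns could not be matched to the replicate numbers of the labels. On RPKM as deposited, Adamts10 was -0.0087 after pneumonectomy against sham, 0.087 on day 30 against sham and 0.096 on day 30 against pneumonectomy, where Adamts7 was 0.29 (0.10 with upper-quartile scaling). With the compared groups alone, Adamts12 was -0.0032 in bleomycin against pneumonectomy at day 14. Leaving out each library in turn, signs turned for Adamts15 on day 14 after bleomycin against sham (-0.10 to 0.36), Adamts12 in bleomycin against pneumonectomy at day 14 (-0.13 to 0.16), Adamts8 (-0.036 to 0.28) and Adamts10 (-0.059 to 0.0013) on day 30 against sham, and Adamts7 on day 30 against pneumonectomy (-0.15 to 0.095), and the cause was not tested. With 2 sham libraries, either decides much of a sham mean.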
